A study of Sus scrofa with 63 samples.

Results

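CYP11A1, STAR, CYP17A1, HSD3B1, CYP21A2, FDX1, FDXR, NR5A1, NR5A2 and MRAP, 10 genes of steroid hormone synthesis, were followed in the jejunum of pig fetuses late in gestation. They were taken as every array probe that carries one of these gene names in any letter case, together with the probes designed on RefSeq transcripts of CYP11A1 and CYP17A1, which gave 34 of the 60305 probes on the array. CYP11A1 and CYP17A1 were named by the study from results on these same fetuses, so their values are a description and carry no test. The other 8 genes were tested.

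Total RNA of the jejunum, the middle stretch of the small intestine, was hybridised on 1-colour Agilent arrays with 1 array for each of 63 male fetuses. Fetuses came from 2 pig breeds, Large White (LW) and Meishan (MS), and were taken at day 90 or day 110 of gestation. Purebred LW fetuses had an LW sire and an LW sow (9 at day 90 and 9 at day 110), and purebred MS fetuses had an MS sire and an MS sow (6 and 7). LWMS fetuses had an LW sire and an MS sow (9 and 9), and MSLW fetuses had an MS sire and an LW sow (8 and 6). Each sow received semen from both breeds, and fetuses of different sire breeds could therefore share a litter. Which sow carried which fetus was not used, litter mates were therefore counted as independent fetuses, and p-values may be too small. The jejunum was sampled whole, so fewer cells of a type and less RNA per cell cannot be told apart in any value given here.

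Steroid hormones are made from cholesterol, which STAR moves to the inner membrane of the mitochondrion. There CYP11A1 cuts off the cholesterol side chain to give pregnenolone, the committing step of the pathway, with electrons passed on by the reductase FDXR and the ferredoxin FDX1. HSD3B1, CYP17A1 and CYP21A2 act further down the pathway, NR5A1 and NR5A2 are nuclear receptors that switch on steroid synthesis genes, and MRAP is the accessory protein that the receptor for the pituitary hormone ACTH needs at the cell surface. The adrenal cortex and the gonads are the main sites of synthesis, and the intestinal epithelium, where NR5A2 is found in the crypts, is known as a site of local glucocorticoid synthesis.

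Several of the CYP11A1 and CYP17A1 probes cover the same stretch of transcript, so the probes are shown first. They are named here by the base of the transcript at which they start, as the scanner files give it, by RefSeq where no start was given, or by the short probe name of the files. The CYP11A1 probes starting at bases 325, 903 and 1478 and the RefSeq probe were these, with the 57 bases that the last pair share in capitals.
CYP11A1 325: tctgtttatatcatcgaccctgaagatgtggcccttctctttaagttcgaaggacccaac
CYP11A1 903: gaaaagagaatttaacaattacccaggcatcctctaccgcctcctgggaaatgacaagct
CYP11A1 1478: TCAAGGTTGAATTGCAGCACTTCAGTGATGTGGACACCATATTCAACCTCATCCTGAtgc
CYP11A1 RefSeq: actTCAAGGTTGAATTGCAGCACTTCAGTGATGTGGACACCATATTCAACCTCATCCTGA
The probe O9155 holds the same 60 bases as the probe at 1478, so these 3 probes read 1 place in the transcript and are not separate evidence. The sixth CYP11A1 probe starts at base 1790, and a 30-base stretch of it holds the AATAAA hexamer, in capitals here, which is known as a polyadenylation signal near transcript ends.
CYP11A1 1790: tcatccactcccatgaaggcAATAAAtagc
The hexamer, searched as written on the probe strand, was found in 6185 of the 60305 probes (10.3%) and in 6 of the 34 probes described here.

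CYP17A1 had 4 probes, of which the one at base 1226 and O9906 share the 23 bases in capitals below. The RefSeq probe is given by its first 30 bases.
CYP17A1 1226: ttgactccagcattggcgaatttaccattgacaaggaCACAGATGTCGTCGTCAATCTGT
CYP17A1 O9906: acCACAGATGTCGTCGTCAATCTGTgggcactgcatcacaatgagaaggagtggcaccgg
CYP17A1 1072: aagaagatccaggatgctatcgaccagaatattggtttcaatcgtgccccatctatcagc
CYP17A1 RefSeq: cgccttctttttccaggctgcagcctggca
NR5A2 and MRAP had 1 probe each, shown because both genes gave a called difference, NR5A2 by its first 30 bases. The files give both probes these gene names but annotate them with transcript records that are not of the pig, a human one for NR5A2, and neither was matched to a pig transcript here, so the transcript they read was not checked.
NR5A2 O10797: aacatattgatgctgagctttcggagtcat
MRAP O6449: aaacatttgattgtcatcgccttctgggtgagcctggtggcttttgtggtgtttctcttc

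Levels are given as log2 of the background-corrected signal after the 75th percentile of the same array was subtracted, with the mean ± SD over fetuses. A level of 0 therefore lies at that percentile, and levels of different probes are not set against each other. Each array had 51.2% to 87.6% of its probes well above background by the scanner's own test, with a median of 66.7%, and the arrays lay on 8 slides that each held both ages. A probe was tested when 75% or more of the arrays of any group read it well above background, which kept 40515 probes. Of the 24 probes of the 8 genes under test, 7 passed this filter and belonged to FDX1, FDXR, NR5A2, MRAP and HSD3B1. The 9 probes of STAR, 4 of CYP21A2 and 3 of NR5A1 did not pass it. All 10 probes of CYP11A1 and CYP17A1 passed.

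**Figure D1:**
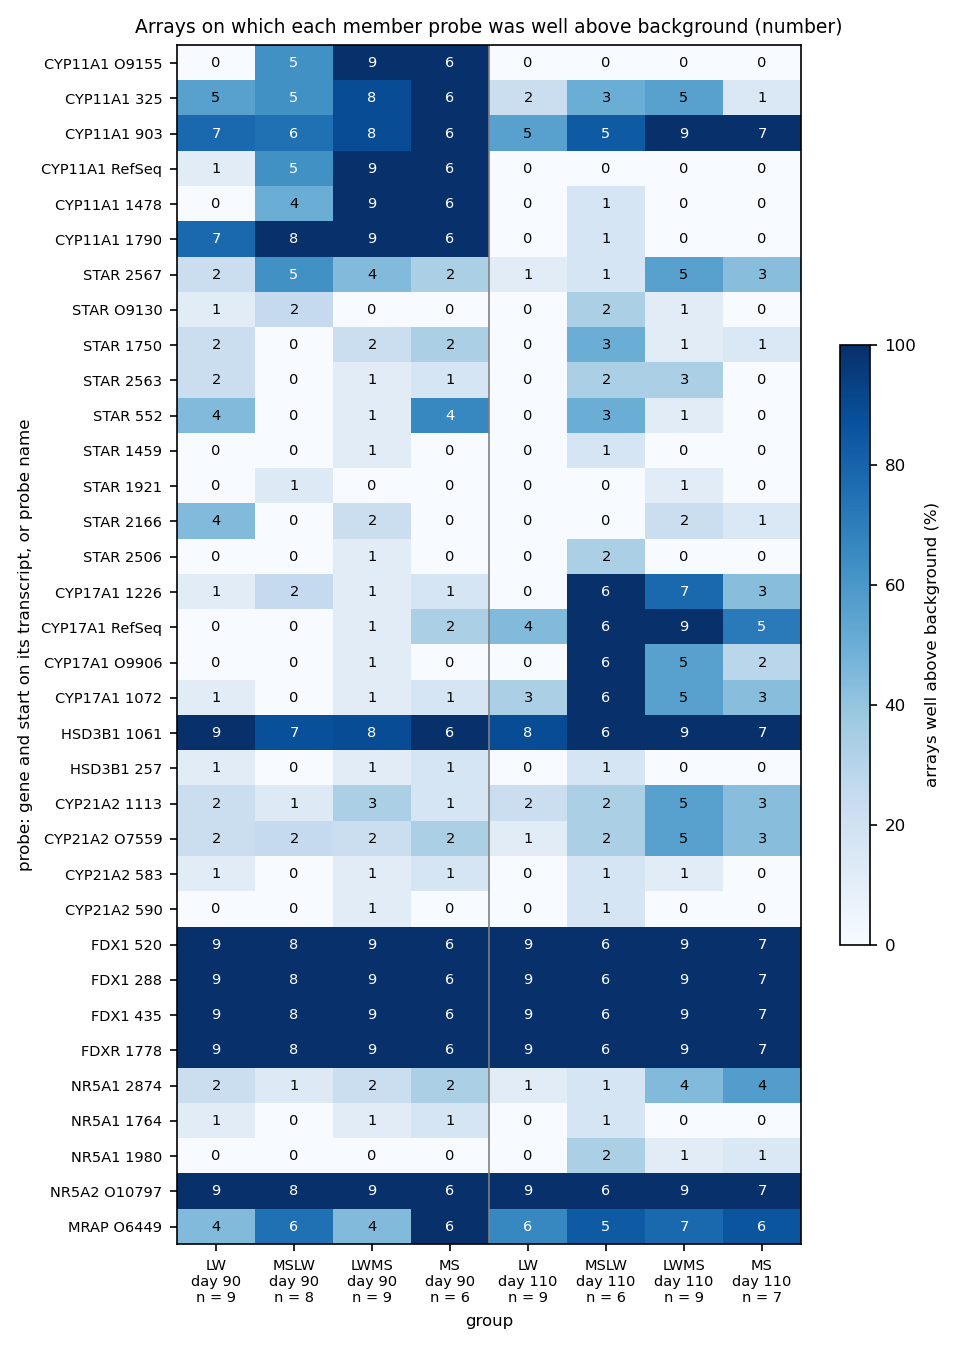
Share of the arrays of each group (columns) on which each probe (lines, grouped by gene) was well above background, in percent. FDX1, FDXR and NR5A2 were read on all 63 arrays, the CYP11A1 probes at 1478 and 1790 on 1 array each at day 110, the one at 903 at both ages, CYP17A1 mostly at day 110, and STAR, CYP21A2 and NR5A1 on at most 66.7% of the arrays of a group.

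The CYP11A1 signal was high at day 90 in fetuses of MS sows, split in MSLW fetuses, low or near background in LW fetuses, and low in every genotype at day 110. At the probe starting at base 1790, LW fetuses at day 90 ranged from −6.51 to −3.76 (median −4.78, mean −4.95 ± 0.93, n = 9), with 7 of the 9 arrays well above background. LWMS fetuses ranged from −0.96 to 2.59 (median 0.77, mean 0.78 ± 1.21, n = 9). MS fetuses ranged from −0.66 to 2.86 (median 2.66, mean 1.96 ± 1.38, n = 6). Neither the LWMS nor the MS range overlapped that of LW, while LWMS and MS overlapped each other.

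MSLW fetuses at day 90, which carry the same breeds as LWMS with sire and sow exchanged, split widely at this probe. Fetuses 485, 455 and 738 stood at 1.48, 1.57 and 1.59. The other 5 fetuses, 899, 900, 902, 498 and 450, stood at −2.57, −2.67, −2.76, −3.22 and −5.33. The group mean of −1.49 ± 2.66 (n = 8) thus lies at a level that no fetus of the group had, and 3 of the 8 fetuses were within the LWMS range. The 3 high fetuses lay on 3 different slides. Their summed enterocyte marker levels were 8.58, 8.43 and 8.70 and those of the 5 low fetuses ran from 7.66 to 8.89, so the ranges overlapped. Of the 17 fetuses of LW sows at day 90, only these 3 exceeded the lowest of the 15 fetuses of MS sows, at −0.96.

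At day 110 the probe at 1790 was well above background on 0 of 9 LW arrays, 1 of 6 MSLW arrays, 0 of 9 LWMS arrays and 0 of 7 MS arrays. The group means were −6.72 ± 1.27, −5.97 ± 1.70, −6.81 ± 0.70 and −6.47 ± 1.1 in that order, and the groups overlapped. The ages did not overlap in LWMS, where the highest day 110 value was −6.01, or in MS, where it was −4.61. A group with no array well above background gives only a bound, computed as the mean of the bright group over the dimmest signal that passed the background test on each dim array, or the dim probe's own signal where that was higher. On this rule the signal at day 90 was at least 152-fold higher than at day 110 in MS and at least 86.2-fold higher in LWMS, and the rule gave no fold for LW. These bounds hold for this background correction only. On the log2 scale they are 7.25 and 6.43, whereas the day 110 minus day 90 difference in the authors' values was −6.10 in MS and −5.11 in LWMS, and with normexp −5.28 and −4.32. With the correction used here the fitted differences were −8.43 in MS, −7.59 in LWMS, −4.48 in MSLW and −1.77 in LW, taken from day 110 signals of which 1 in all was well above background, and the LW difference was −0.11 with normexp.

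The place shared by the probe at 1478, the RefSeq probe and O9155 gave the same order of groups at day 90. At 1478 the means were −6.76 ± 1.03 in LW, −3.74 ± 2.86 in MSLW, −1.26 ± 1.14 in LWMS and −0.06 ± 1.43 in MS, with 0 of 9, 4 of 8, 9 of 9 and 6 of 6 arrays well above background. The bound over LW at this age was at least 37.3-fold in MS and at least 16.3-fold in LWMS. The day 90 over day 110 bound was at least 37.4-fold in MS and at least 21.1-fold in LWMS. RefSeq gave at least 38.4-fold and 21.6-fold for the ages in MS and LWMS, and O9155 gave at least 36.9-fold and 20.6-fold. At day 110 these 3 probes were well above background on 1 array in all, an MSLW array at 1478.

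The probes at 903 and 325 lie further toward the start of the transcript and were read in some LW fetuses and at both ages. At 903, LW fetuses at day 90 ranged from −4.80 to −3.43 (mean −4.38 ± 0.45), MSLW from −4.68 to −2.0 (−3.54 ± 1.11), LWMS from −4.10 to −1.49 (−2.85 ± 0.75) and MS from −3.36 to −1.18 (−1.91 ± 0.85). Neighbouring groups in this order overlapped. At day 110 the means were −4.49 ± 0.54 in LW, −4.01 ± 0.41 in MSLW, −4.10 ± 0.36 in LWMS and −4.07 ± 0.29 in MS, and 26 of the 31 arrays were still well above background. The difference between MS and LW at day 90 was 2.47 at 903 and 2.73 at 325, beside 6.91 at 1790, where 7 of 9 LW arrays were well above background, and a bound of 5.22 at 1478, where none was. The MS difference between ages was −2.16 at 903 and −2.98 at 325, where 1 of 7 MS arrays was well above background at day 110, beside the bounds of 5.23 at 1478 and 7.25 at 1790 in the same direction. The MS minus LW difference at 903 was smaller in the authors' values (1.8) and with normexp (1.52), as was that at 1790 with normexp (5.22) and the MS age difference at 903 with normexp (−1.24). Over 63 arrays the 6 probes correlated pairwise at r between 0.837 and 0.982, on arrays that share their RNA and scaling.

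The order of the day 90 means was LW, MSLW, LWMS and MS at each of the 6 probes. At day 90 the MS minus LW sow difference was 4.59 at 1790, 4.59 at 1478 and 1.58 at 903. The MS minus LW sire difference at this age had the same direction, at 2.32, 2.11 and 0.89. Both draw on the MSLW group, which was split. All 6 were well above background together in 0 of 9 LW, 4 of 8 MSLW, 8 of 9 LWMS and 6 of 6 MS fetuses at day 90, and in no fetus at day 110. Within slides, fetuses of MS sows had the higher mean at day 90 on 8 of 8 slides at 1790 (differences of 2.47 to 6.61), at 1478 (2.33 to 7.11) and at 903 (0.78 to 2.59). Day 110 was lower than day 90 on 8 of 8 slides at 1790 (−6.38 to −4.02) and at 1478 (−4.93 to −1.30), and on 7 of 8 at 903 (−1.40 to 0.17). Over all tested probes, 5.70% were called for sow breed at day 90 and 13.7% for age, and nothing is read from these shares for CYP11A1.

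**Figure D2:**
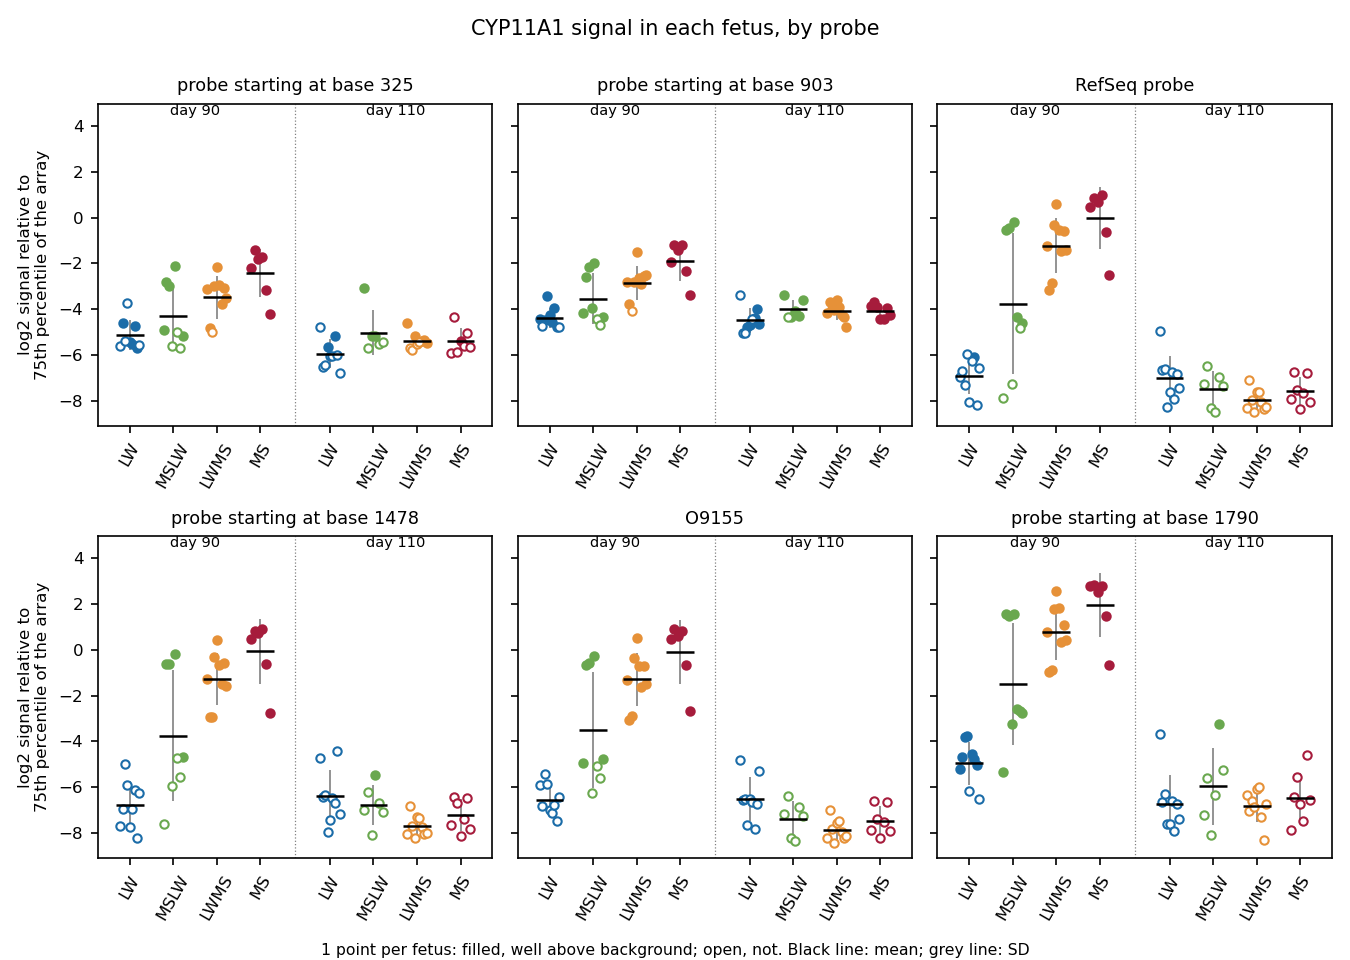
CYP11A1 signal in each fetus by probe, as log2 after the 75th percentile of that array was subtracted, in the 4 genotypes at day 90 and day 110; filled points were well above background, and lines give the mean and SD. At the probe starting at base 1790 all 15 fetuses of MS sows at day 90 lie at −0.96 or higher, and 3 of 8 MSLW fetuses lie among them.

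CYP17A1, the enzyme that turns pregnenolone and progesterone toward cortisol and sex steroids, had the opposite age pattern. At the RefSeq probe, its brightest, the day 90 means were −7.04 ± 0.84 in LW, −6.89 ± 0.68 in MSLW, −6.37 ± 0.91 in LWMS and −6.24 ± 0.65 in MS, where 5 of the 6 arrays had a value. Only 3 of the day 90 arrays were well above background, 1 of LWMS and 2 of MS, and the MS array without a value was 1 of these. CYP17A1 was thus at or near background in nearly all fetuses at day 90.

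At day 110 the MSLW fetuses were highest, from −0.52 to 1.57 (median 0.39, mean 0.42 ± 0.74, n = 6). LWMS fetuses ranged from −4.25 to −0.23 (median −0.96, mean −1.45 ± 1.23, n = 9), and all 15 arrays of both crosses were well above background. MS fetuses ranged from −7.86 to −0.60 (median −2.45, mean −3.35 ± 2.79, n = 7) and LW fetuses from −8.13 to −2.0 (median −3.71, mean −4.38 ± 2.25, n = 9), with 5 of 7 and 4 of 9 arrays well above background. The MSLW range overlapped neither LW nor MS, whereas MSLW and LWMS overlapped, as did LWMS with MS and with LW. The ages did not overlap in MSLW or in LWMS. For MSLW the day 110 signal was at least 45.8-fold higher than at day 90, or 5.52 on the log2 scale, on this background correction. The same difference was 4.98 in the authors' values and 4.0 with normexp, both below that bound.

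The other CYP17A1 probes were dimmer and gave the same highest group. At day 110 MSLW stood at −2.78 at 1226, −3.11 at O9906 and −3.30 at 1072, with 6 of 6 arrays well above background at each. LW stood at −6.45, −6.23 and −5.58, with 0, 0 and 3 of 9 arrays. The bound for MSLW over LW was at least 3.87-fold at 1226 and at least 3.09-fold at O9906, and the bound for MSLW between ages was at least 3.99-fold at O9906 and at least 3.49-fold at 1072. The 4 probes correlated pairwise at r between 0.693 and 0.884 over 62 or 63 arrays. Within slides, day 110 was higher on 8 of 8 slides at the RefSeq probe, by 3.06 to 5.36.

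**Figure D3:**
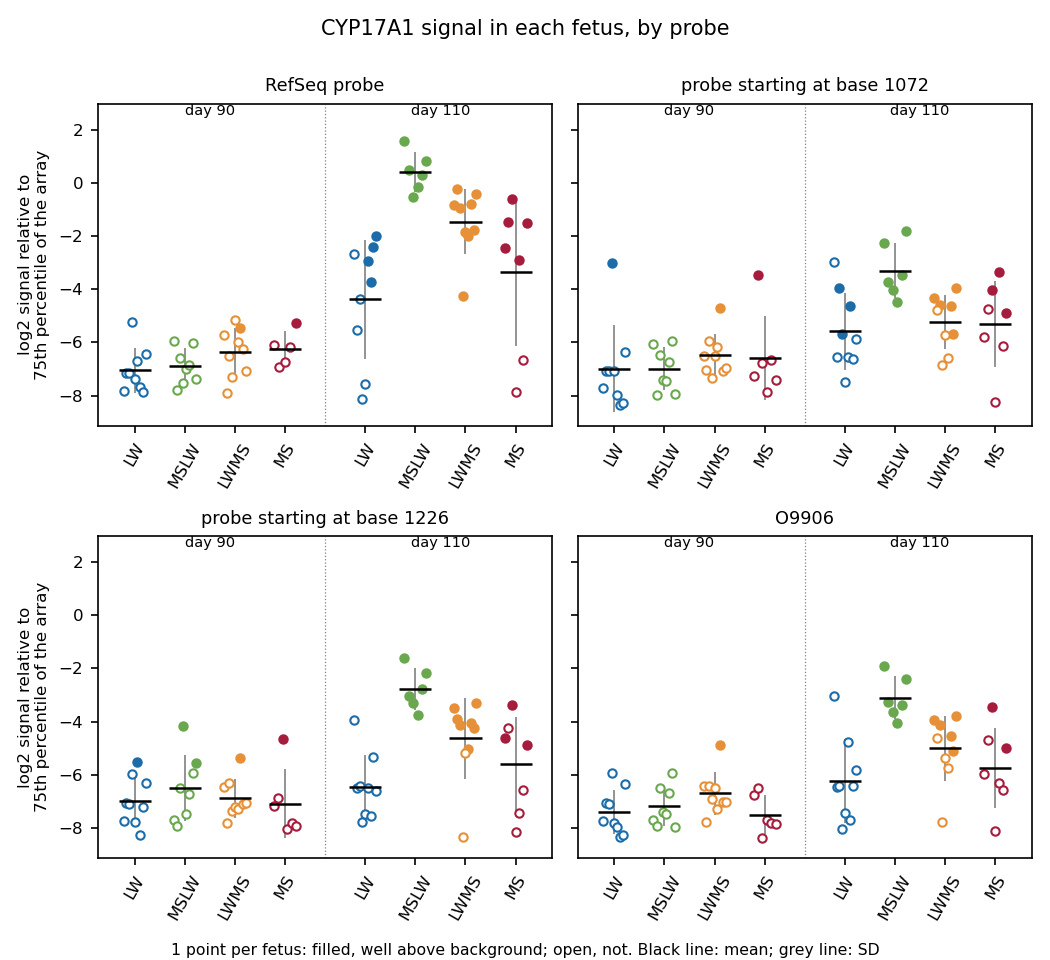
CYP17A1 signal in each fetus by probe, as log2 after the 75th percentile of that array was subtracted, in the 4 genotypes at day 90 and day 110; filled points were well above background, and lines give the mean and SD. At the RefSeq probe the 6 MSLW fetuses at day 110 lie from −0.52 to 1.57, above all LW and MS fetuses.

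Markers of enterocytes, the absorptive cells of the intestinal lining, were low in the fetuses with the lowest CYP17A1 signal at day 110. Of the 6 fetuses with the lowest summed level of 8 enterocyte genes, 5 were the 5 fetuses with the lowest CYP17A1 RefSeq signal, namely LW fetuses 572, 575 and 557 and MS fetuses 623 and 632. The remaining one, LW fetus 559, had the sixth lowest CYP17A1 value, −4.38. None of these 6 was well above background at the RefSeq probe, so their order within it, and which 5 were lowest, has no meaning. LW fetus 469 was also not well above background there, at −2.69. Its enterocyte level was 9.77, ranked 21 of 31 from the lowest. At the other end, MSLW fetuses 578 and 851 ranked 9 and 10 of 31 from the lowest for the enterocyte level but 27 and 30 for CYP17A1. Fetus 632 stood apart with a summed enterocyte level of 4.82 against 8.19 to 9.83 in the other MS fetuses at this age. The summed level ranged from 7.05 to 9.89 in LW, 8.59 to 10.13 in MSLW and 8.33 to 10.04 in LWMS, so MSLW and LWMS overlapped. FABP1, FABP2, LCT and APOA4 were well above background on all 63 arrays. The part of the enterocyte share in the CYP17A1 levels was not tested.

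**Figure D4:**
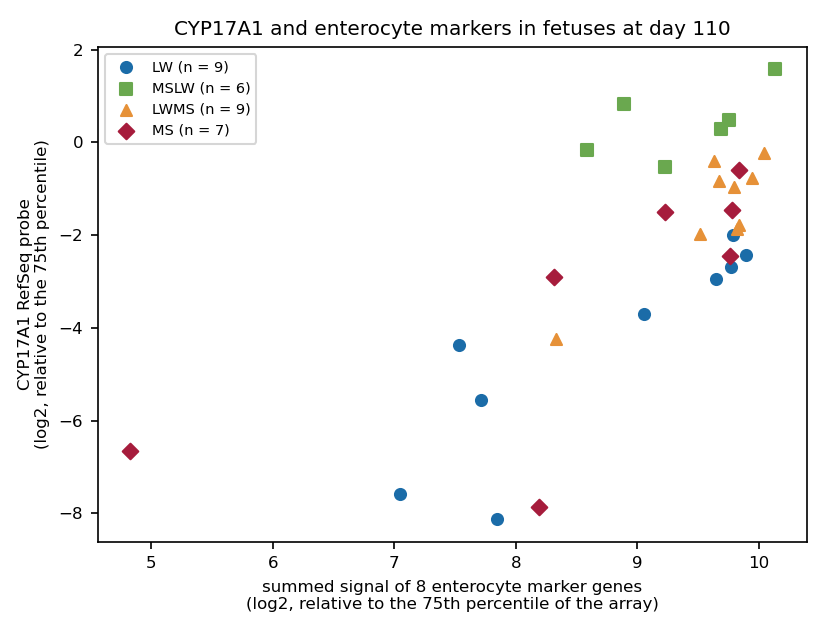
CYP17A1 RefSeq probe signal (vertical axis) against the summed signal of 8 enterocyte marker genes (horizontal axis), both log2 with the 75th percentile of each array at 0, in the 31 fetuses at day 110. The 5 fetuses with the lowest CYP17A1 values, none well above background, are among the 6 with the lowest enterocyte level. Fetus 632 lies far to the left at 4.82. LW fetus 469, also not well above background for CYP17A1, lies at 9.77.

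STAR, CYP21A2 and NR5A1 were near background. STAR, the cholesterol carrier of steroid cells, CYP21A2, the enzyme that leads to cortisol and aldosterone, and NR5A1, the master regulator of adrenal and gonadal steroid cells, have 16 probes together. They were well above background on 148 of 1008 spots (14.7%). The array of fetus 823 alone had 12 of the 16 (75%) well above background and that of fetus 851 had 10 (62.5%). These arrays read 87.6% and 80.4% of all probes well above background, so both shares lie below those of the whole array. No group reached the share needed for testing, with 66.7% of arrays the most for any probe, so no comparison of these 3 genes between ages or breeds was made. A STAR pair is shown because its probes read opposite strands over the 40 bases in capitals, the second being the reverse complement of the first.
STAR 552: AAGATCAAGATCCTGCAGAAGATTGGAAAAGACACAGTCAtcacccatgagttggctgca
STAR O9130: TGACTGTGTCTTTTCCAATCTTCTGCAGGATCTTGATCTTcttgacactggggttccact

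NR5A2, the nuclear receptor of the intestinal crypts, was well above background on all 63 arrays and was lower at day 110 in each genotype. In LW it ranged from 0.89 to 1.54 (median 1.36) at day 90 and from 0.09 to 1.09 (median 0.79) at day 110. In MSLW it ranged from 1.21 to 1.90 (median 1.53) and from 0.30 to 1.15 (median 0.75). In LWMS it ranged from 1.40 to 1.92 (median 1.62) and from 0.45 to 1.45 (median 0.99). In MS it ranged from 1.29 to 2.07 (median 1.75) and from 0.41 to 1.04 (median 0.96). The ages did not overlap in MSLW and MS and overlapped in LW and LWMS.

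Averaged over genotypes, NR5A2 fell by 0.70 (SE 0.08, limma with Benjamini-Hochberg adjustment over all tested probes, adjusted p = 3.4e-11). A call for age or for purebreds required an adjusted p of at most 0.01 and a log2 difference of at least 0.5 in size, and a call for sow or sire breed an adjusted p under 0.05. NR5A2 was the only one of the 7 tested probes called for age, against 13.7% of all tested probes, of which 7.62% were lower. The fall was called in LW (−0.53, SE 0.14, adjusted p = 0.0078), MS (−0.92, SE 0.17, adjusted p = 9.7e-05), LWMS (−0.61, SE 0.14, adjusted p = 0.001) and MSLW (−0.73, SE 0.16, adjusted p = 0.001), where 4.77%, 3.17%, 9.88% and 5.41% of all tested probes were called. Within slides day 110 was lower on 8 of 8 slides, with differences of −0.99 to −0.14. The call in LW was lost with the normexp background correction (−0.50, just under the required size), with the slide as a block (adjusted p = 0.011), without a filter on dim probes (0.014) and with each array centred on its median (−0.55, adjusted p = 0.11). Median centring also ended the calls in MS (−0.79, adjusted p = 0.041), LWMS (−0.47, adjusted p = 0.12) and MSLW (−0.80, adjusted p = 0.026), with differences of much the same size. Array weights ended the call in LWMS, with a difference of −0.47.

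The mean NR5A2 level at day 90 followed the order LW (1.25 ± 0.27), MSLW (1.5 ± 0.21), LWMS (1.62 ± 0.17) and MS (1.73 ± 0.25), and all neighbouring groups overlapped. The MS minus LW difference at day 90 was 0.48 (SE 0.16, limma adjusted p = 0.052) and the MS minus LW sow difference was 0.30 (SE 0.11, adjusted p = 0.084), and neither was called. Among the 7 tested probes 0 were called for the purebred comparison at day 90, where 3.59% of all tested probes were, with 2 at an unadjusted p under 0.05, as had 7275 of all 40515. The sow comparison at day 90 also gave 0 calls, where 5.70% of all tested probes were called, with 3 at an unadjusted p under 0.05, as had 7635 of all. At day 110, 0 of the 7 probes were called between purebreds and 0 between sow breeds, where 5.01% and 9.97% of all tested probes were called, and 1 probe in each had an unadjusted p under 0.05, as had 9434 and 9502 of all. With array weights NR5A2 was called higher with MS sows at day 90 (0.26, adjusted p = 0.048) and at day 110 (0.28, adjusted p = 0.045).

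MRAP, the partner of the ACTH receptor, was dim and was well above background on 44 of the 63 arrays. At day 90 it was higher in fetuses of MS sires. LW fetuses ranged from −6.71 to −4.28 (median −5.55) and LWMS fetuses from −6.55 to −4.69 (median −5.45), with 4 of 9 arrays well above background in each. MSLW fetuses ranged from −5.69 to −3.70 (median −4.30) and MS fetuses from −5.11 to −3.44 (median −4.30), with 6 of 8 and 6 of 6 arrays. The fetuses of both sire breeds overlapped, with 11 of the 18 of LW sires above the lowest of the 14 of MS sires.

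The MRAP sire difference at day 90 was 1.11 (SE 0.29, limma adjusted p = 0.020), and MRAP was the only one of the 7 probes called, against 2.11% of all tested probes, of which 0.842% were higher. Fetuses of MS sires had the higher mean on 7 of 8 slides, over a range of −0.36 to 2.08. The call was lost in the authors' own processed values (0.44, adjusted p = 0.062) and with the normexp background correction (0.42, adjusted p = 0.12). At day 110 the sire difference was 0.21 (SE 0.29, adjusted p = 0.90) and 0 of 7 probes were called, against 2.15% of all. The test of the difference between both ages gave −0.90 (SE 0.41, adjusted p = 1), so the sire difference was not shown to change with age. For that term 0 of all tested probes were called by limma, with 708 at an unadjusted p under 0.05, and 0 of the 7 probes were called for the sow by age term, where 0.388% of all were. MRAP at day 110 ranged from −6.08 to −1.91 in LW, −5.46 to −3.07 in MSLW, −5.87 to −3.93 in LWMS and −5.12 to −3.29 in MS.

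FDX1 and FDXR, the electron chain that serves CYP11A1 and other mitochondrial cytochromes, were well above background on all 63 arrays and no probe of theirs was called in any comparison. FDX1 at its brightest probe had means of 3.02 ± 0.39, 2.94 ± 0.16, 3.24 ± 0.39 and 3.19 ± 0.40 in LW, MSLW, LWMS and MS at day 90. At day 110 the means were 3.03 ± 0.33, 3.32 ± 0.49, 3.42 ± 0.44 and 3.35 ± 0.45. The age difference was 0.18 (SE 0.10, limma adjusted p = 0.14), and the 3 FDX1 probes correlated pairwise at 0.912 to 0.968 over the arrays. With array weights, which give less weight to noisier arrays, FDX1 was called between the purebreds at day 110 (0.60, adjusted p = 0.0057) and between sow breeds at day 110 (0.35, adjusted p = 0.03).

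FDXR varied little among fetuses, with group means between 1.01 and 1.19 and SDs between 0.09 and 0.22. Its age difference was −0.04 (SE 0.04, limma adjusted p = 0.51).

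HSD3B1, which converts pregnenolone to progesterone, was read by 1 of its 2 probes. The probe at base 1061 was well above background on 60 of 63 arrays, and the probe at base 257 on 4. Means at 1061 were −3.87 ± 0.49, −3.64 ± 0.53, −3.46 ± 0.64 and −3.36 ± 0.60 in LW, MSLW, LWMS and MS at day 90 and −3.58 ± 0.98, −3.53 ± 0.49, −3.81 ± 0.35 and −3.51 ± 0.15 at day 110. The groups overlapped throughout and the probe was called in no comparison, with an age difference of −0.03 (SE 0.15, limma adjusted p = 0.91) and a MS minus LW difference at day 90 of 0.52 (SE 0.30, adjusted p = 0.39).

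**Figure D5:**
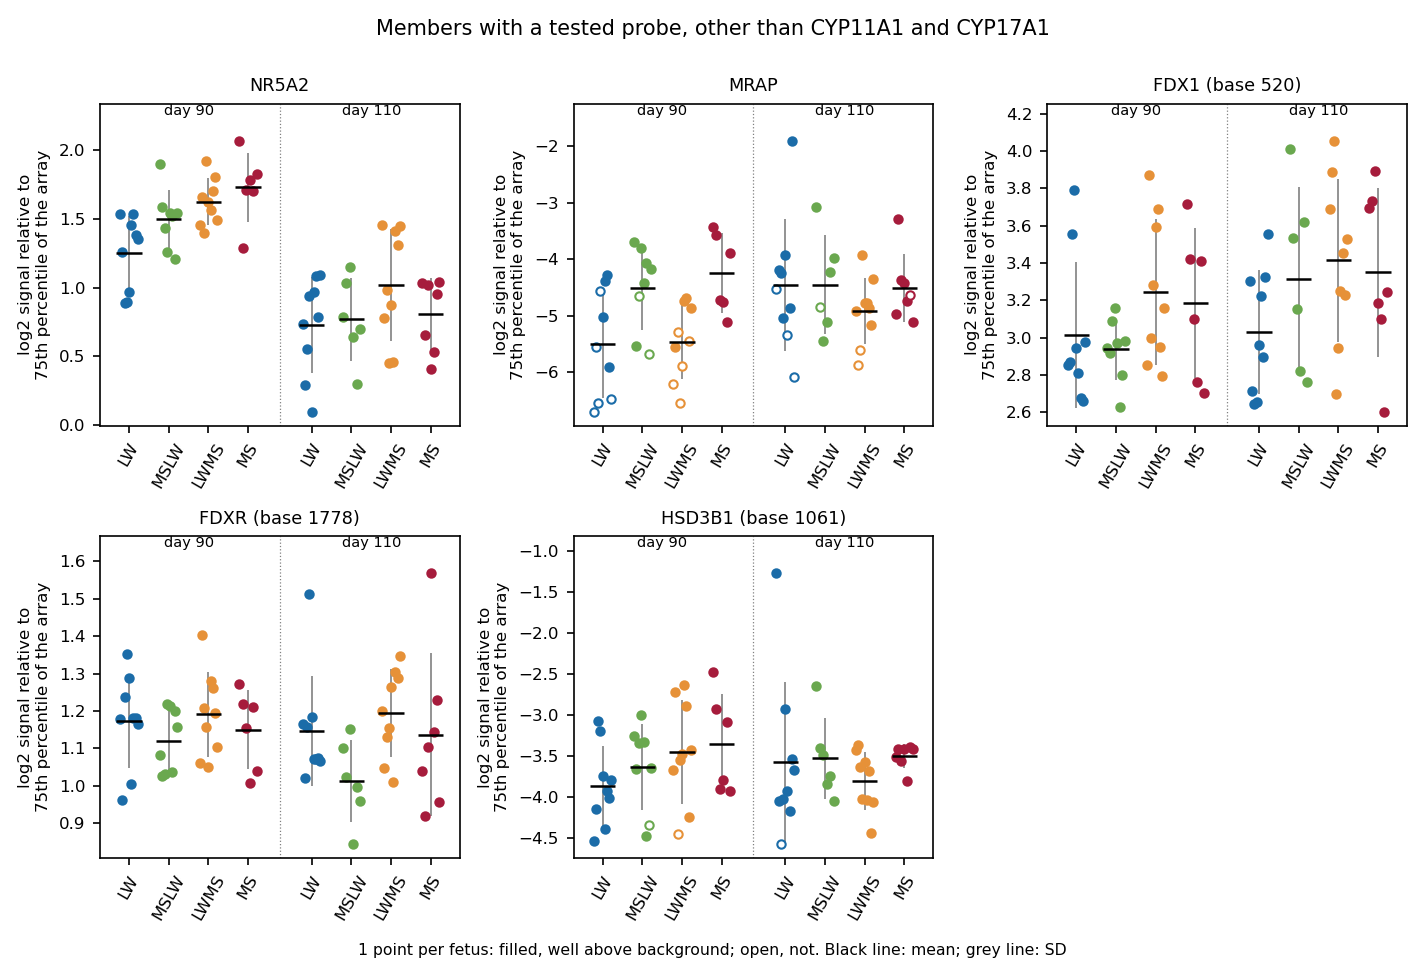
Levels of HSD3B1, FDX1, FDXR, NR5A2 and MRAP at their brightest probes in each fetus, as log2 after the 75th percentile of that array was subtracted, in the 4 genotypes at day 90 and day 110; lines give the mean and SD. NR5A2 is lower at day 110 in each genotype, FDXR group means stay between 1.01 and 1.19, and MRAP at day 90 is higher in MSLW and MS than in LW and LWMS.

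Other genes of the pathway were described from lists, each gene by its brightest tested probe, beside a median age difference of −0.02 over all tested probes, of which 13.7% were called for age. Of 10 genes of cholesterol supply, 1 rose and 1 fell with age (median 0.12), where STARD4, a cholesterol carrier, rose by 1.41 (SE 0.14, limma adjusted p = 3.2e-12) and NPC2, which moves cholesterol out of lysosomes, fell by 1.06 (SE 0.17, adjusted p = 9.9e-07). Of 4 electron donors, 2 rose and 0 fell (median 0.55). The 2 that rose serve enzymes of the endoplasmic reticulum, CYP17A1 and CYP21A2 among them. POR rose by 1.21 (SE 0.08, adjusted p = 3.7e-18) and CYB5A, which helps the lyase reaction of CYP17A1, by 0.81 (SE 0.13, adjusted p = 1.1e-06).

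Of 17 other steroid enzymes, 3 rose and 1 fell (median 0.06). CYP27A1, a mitochondrial sterol hydroxylase, rose by 1.36 (SE 0.19, limma adjusted p = 2.4e-08) and HSD11B2, which inactivates cortisol, by 1.1 (SE 0.24, adjusted p = 0.00023). HSD17B14 fell by 1.54 (SE 0.31, adjusted p = 5.7e-05). Of 6 genes of steroid sulfate handling, 0 rose and 2 fell (median −0.03), SULT1E1, the estrogen sulfotransferase, by 1.54 (SE 0.28, adjusted p = 1.2e-05) and PAPSS2, which makes the sulfate donor, by 0.52 (SE 0.16, adjusted p = 0.0079). Of 15 genes of ACTH signalling and transcription, 0 were called with age (median −0.03), although POMC, the ACTH precursor, had −0.34 with an adjusted p of 9e-04, below the required size.

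Breed differences in these lists belonged to 6 of 52 tested genes, which are named here after their values were seen. Of the 52, 1 was called between purebreds at day 90 and 5 at day 110, where 3.59% and 5.01% of all tested probes were. For sow breed 2 and 5 were called, where 5.70% and 9.97% of all were, and for sire breed 1 and 2, where 2.11% and 2.15% of all were. AKR1D1, a steroid reductase of bile acid and steroid breakdown, is among the genes counted at both ages. It did not pass the filter through MS fetuses, so it is given by its counts alone. It was well above background on 1 of 6 MS and 8 of 9 LW arrays at day 90. At day 110 it was so on 1 of 7 MS and 6 of 9 LW arrays. GATA4, a transcription factor of steroid cells and of the proximal intestine, was lower in MS at day 110 (−2.34, adjusted p = 0.002). SULT2A1, a steroid sulfotransferase, was also lower (−1.74, adjusted p = 0.0046). ADCY3, an adenylate cyclase, is among the genes counted at day 110. It passed the filter only through LW fetuses at day 90, so it is given by its counts alone. At day 110 it was well above background on 2 of 7 MS and 6 of 9 LW arrays. STARD3, a late endosome cholesterol carrier, was higher in MS at day 110 (0.62, adjusted p = 0.0048), and SUMF1 was higher with MS sows at day 110 (0.35, adjusted p = 0.048).

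Markers of steroid glands and other tissues were read beside these genes. For the adrenal cortex, MC2R, the ACTH receptor, was well above background on 1 of 63 arrays and CYP11B2 on 5, NR0B1 on 56, while INHA, DLK1 and AKR1B1 were so on all 63. The summed adrenal cortex level, which follows its brightest genes, was 3.18 to 4.08 in LW and 2.65 to 3.44 in MS at day 90, while the median MS minus LW difference of the 4 tested markers was 0.47 and 0 of them were called. The sum and the median thus differ in sign, and the part of these markers in the CYP11A1 levels was not tested. For the gonad, INSL3, LHCGR and FSHR were each well above background on 4 of 63 arrays, HSD17B3 on 41, DDX4 on 50, and AMH, CYP19A1 and INHBA on all 63. With age, where 13.7% of all tested probes were called, 0 of the tested markers outside the 10 genes were called for the adrenal cortex (4), adrenal medulla (3), gonad (5), T lymphocyte (7) and crypt (5) lists. For mast cells 1 of 4 rose, for pancreas 1 of 3 rose, for enterocytes 4 of 8 rose and 2 fell, and for liver 1 of 4 rose and 2 fell. INS, the pancreas gene that rose, and SI, an enterocyte gene that rose, passed the filter only through groups at day 110. FGB, a liver gene that fell, passed it only through MS fetuses at day 90. The filter thus favoured the direction of these calls, and nothing is read from them.

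Single markers of liver, mast cells and T lymphocytes were called between breeds at day 90, where 3.59% of all tested probes were called between the purebreds and 5.70% for sow breed. TF, the transferrin gene and a liver marker, was higher in MS than in LW (2.0, limma adjusted p = 0.003) and with MS sows (1.36, adjusted p = 0.0038). FGB, another liver marker, passed the filter only through MS fetuses at day 90, so it is given by its counts alone, well above background on 0 of 9 LW, 4 of 8 MSLW, 1 of 9 LWMS and 6 of 6 MS arrays at that age. ALB, the defining gene of liver cells, was so on 5 of 9, 4 of 8, 3 of 9 and 5 of 6 arrays in that order. The summed liver level ran from −0.75 to 0.87 in LW, −0.80 to 1.64 in MSLW, 0.31 to 1.99 in LWMS and 0.78 to 2.53 in MS at day 90, and from −1.38 to 2.50 in MS and 0.68 to 1.97 in LWMS at day 110. KIT was the only one of 4 tested mast cell markers called, lower in MS than in LW (−0.88, adjusted p = 0.0099) and with MS sows (−0.66, adjusted p = 0.0046). The median MS minus LW difference of these 4 was 0.005, and TPSD1 was well above background on 6 of 6 MS arrays against 1 of 9 LW arrays. LCK was the only one of 7 tested T lymphocyte markers called, lower in the same comparisons (−0.93, adjusted p = 5.8e-05, and −0.49, adjusted p = 0.0032), while the medians of these 7 were 0.05 and 0.17. At day 110, 5.01% of all tested probes were called between the purebreds. KIT (−0.92, adjusted p = 0.0032) and LCK (−1.40, adjusted p = 1.4e-09) were again lower in MS than in LW, each the only marker of its list called. The median MS minus LW difference at day 110 was 0.43 for the 4 mast cell markers, opposite in sign to KIT. For the 7 T lymphocyte markers it was −0.25. G6PC was the only one of 4 tested liver markers called between the purebreds at that age, higher in MS than in LW (3.04, adjusted p = 9.9e-06). The median of these 4 was 0.70. AKR1B1 was the only one of 4 tested adrenal cortex markers called, lower in MS than in LW (−0.87, adjusted p = 0.00078). The median of those 4 was 0.32, opposite in sign to AKR1B1. The part of these markers in the CYP11A1 levels was not tested.

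Genes most like CYP11A1 were taken by Pearson r with its brightest probe, at base 903, over 63 arrays that share their scaling, as a description. PPM1F (0.755), TF (0.717, by the highest of 4 probes), SLC22A16 (0.671), HSPB3 (0.652), NDST4 (0.633), TICAM2 (0.633) and MKNK2 (0.626) came first. With the 8 group means removed, the values were lower, from ANGPTL4 (0.528), EFTUD1 (0.526), ASB7 (0.524) and SLC39A9 (0.524) down to FUT7 (0.515), and only 3 of these 10 probes were found again in the authors' processed values. Against the probe at 1790, chosen after seeing the data, HSPB3 (0.836), AFP (0.829), PPM1F (0.798), HAPLN3 (0.775) and CA4 (0.773) led. Against the CYP17A1 RefSeq probe, also chosen after seeing the data, CD5L (0.915, by the highest of 4 probes), ASS1 (0.905), DDR1 (0.896), SLC25A4 (0.895) and SLC24A6 (0.894) led, and with group means removed TARSL2 (0.830), PLBD1 (0.823), MMP25 (0.822) and MEP1B (0.815) led.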

How the data were processed

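The deposited scanner files hold spot and background intensity for 1 array per fetus, made by the authors with Agilent Feature Extraction 10.10.1.1 per the submitters' processing notes, which also name limma. The series matrix holds the authors' processed log2 values for 39446 probes. From the scanner files, the log2 background-corrected intensity was used, less the 75th percentile of its own array. Spots of the same probe were averaged, controls dropped, and spots the scanner marked as outliers treated as missing, so that the fit dropped the fetus concerned at 2775 of the 40515 tested probes. Probes were kept when 75% or more of the arrays of any group read them well above background. Group means of all 63 arrays were fitted with lmFit and eBayes of limma 3.58.1 in R 4.3.3, and p-values were adjusted by Benjamini-Hochberg over all tested probes. The number of arrays limits the precision.

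The 10 genes and all lists were chosen with earlier results of these data known. Each gene is given by its brightest probe, and every CYP11A1 and CYP17A1 probe is named. At most 3 genes of a pathway list are named, those called with the lowest adjusted p for age, and the 10 probes most like CYP11A1 are described by their leading genes. Summed marker levels are log2 of summed linear signals. All 10 symbols were found in the RefSeq gene table of Sscrofa11.1, which was used for names only. In data simulated for the age comparison over 40515 probes, 41.8%, 85.1% and 98.5% of changes of 0.5, 1 and 1.5 on the log2 scale were recovered, with 2 false calls. A change of 0.5 lies at the size required for a call, which limits its recovery. Changes were equal in every genotype and errors independent, so shared litters were not simulated. Alternatives were the authors' values, normexp (offset 50), quantiles, centring on the median, an absent or a stricter filter, the slide as a block, array weights, and leaving out fetuses 484 and 469 or, chosen after seeing the data, fetus 823.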

Additional observations from a re-analysis of the deposited data

Results flagged for a closer look

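Within groups, 6 of the 80 combinations of a gene and a group held 1 fetus far from the others relative to the whole range of the group, each well above background, and chance flags about 1 in 20 groups. STAR in LWMS fetuses at day 110 was highest in fetus 405, at −3.52 against −5.18 in the next. CYP17A1 in LWMS fetuses at day 110 was lowest in fetus 609, at −4.25 against −1.98. HSD3B1 was highest in LW fetus 469 at day 110, at −1.28 against −2.93, and lowest in MS fetus 627 at day 110, at −3.81 against −3.57. The array of fetus 469 had the lowest share of probes well above background of all arrays, 51.2%. The dimmest signal that passed the background test on it was −2.65. FDXR was highest in LW fetus 572 at day 110, at 1.51 against 1.18. MRAP was highest in MS fetus 407 at day 110, at −3.29 against −4.37.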

How the results depend on the processing

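Under the alternatives run, no called difference of the 5 tested genes changed direction. Nor did any difference larger than the SD between fetuses at the CYP11A1 probes at 903 and 1790 or the CYP17A1 RefSeq probe. Other probes of CYP11A1 and CYP17A1 were not compared under the alternatives. Of 650 recomputed differences of the 5 tested genes, 636 kept their side of the threshold, 10 lost a call and 4 gained one. Of the calls for the 7 tested probes, 70 counts were recomputed and 65 stayed within 1.5 times. The 4 calls for age within genotypes became 0 with median centring. With array weights the calls between purebreds rose from 0 to 3 and those between sow breeds from 0 to 5, while the share of all tested probes called rose to 6.97% and 15.7% between purebreds at day 90 and 110 and to 10.6% and 24.1% between sow breeds. The single call for sire breed, MRAP, became 0 in the authors' values and with normexp. The CYP17A1 age difference of 4.44 became 2.68 in the authors' values and 2.20 with normexp, and the CYP11A1 difference at base 1790 of −5.57 became −3.69 and −3.00. The cause was not tested. Median centring moved the median of all probes by up to 0.22 (sow breed at day 110). Dim signals limit MRAP and the low groups of CYP11A1 and CYP17A1. No paired analysis was possible because the fetus numbers in the labels are unique to each fetus.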
